A study of Mus musculus with 15 samples.

Results

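Genes of myelin and of mature oligodendrocytes had higher group means in PGF, PGM and HM than in Control, in that order of size, while the genes of oligodendrocyte precursors were lower in the same 3 groups. Their level in HF was close to Control. The genes described are 34 members of the oligodendrocyte lineage, chosen by name with earlier results of these data known, out of 24831 gene names in the table, and all 34 were found. They were sorted by role into 2 precursor genes, 5 lineage transcription factors, 4 premyelinating genes and 23 genes of myelin and mature oligodendrocytes, called mature below.

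The hypothalamus was taken from outbred CD-1 mice on postnatal day 15, and the study's title concerns thyroid hormone effects that reach the F2 generation. There were 15 samples, 3 in each of 5 groups (Control, PGM, PGF, HF and HM). The labels give each group by its code alone, so the sources used here do not say what treatment, sex or parentage a group stands for. What was analysed was 1 mean RPKM per transcript and group, as the authors deposited it (reads per kilobase of transcript, scaled to the mapped reads of a library). Values of single libraries were not used. No value below therefore has an SD, no difference has a replicate check or a test, and the read depth is unknown. Differences are between values of log2(mean RPKM + 0.5), and a gene is counted when the difference reaches 1.5-fold.

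Oligodendrocytes wrap axons in myelin, a stack of compacted membrane rich in lipid. They arise from dividing precursors that carry the platelet-derived growth factor receptor Pdgfra and the proteoglycan Cspg4 (NG2). Precursors that leave the cycle pass through a premyelinating stage marked by Gpr17, Enpp6 and Bcas1, and then switch on the genes of the myelin sheath under Sox10 and Myrf. In the mouse brain myelin is laid down mainly in the first weeks after birth, and thyroid hormone is a known driver of this step.

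Some facts of the whole table bear on every comparison. Among the 17481 genes that averaged 1 RPKM or more, the median difference lay between -0.05 and 0.03 in the 6 comparisons. The Y-linked gene Ddx3y was at 2.52 RPKM in Control, 30.4 in PGM, 32.0 in PGF, 15.9 in HF and 16.8 in HM, so Control was the lowest group and HM and HF lay between it and PGM and PGF. Pituitary hormone genes were far higher in PGF, with a summed level of 2026 RPKM over 8 genes against 58.6 to 112 in the other groups. Lens genes summed to 18.0 RPKM in Control and to at most 2.44 elsewhere. The part of these differences in the results below was not tested.

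Both precursor genes were lower in PGM, PGF and HM and nearly the same in HF and Control. Pdgfra, the receptor through which precursors are kept dividing (chromosome 5, 75152292 to 75198215 in GRCm38), was at 65.55 RPKM in Control, 54.0 in PGM, 55.6 in PGF, 64.7 in HF and 55.0 in HM. Cspg4 (chromosome 9, 56865033 to 56899870) was at 25.6 RPKM in Control, 19.8 in PGM, 18.4 in PGF, 25.2 in HF and 19.9 in HM. For both genes Control and HF formed a high pair and the other 3 groups lay together below it. Against Control the pair had a median difference of -0.32 in PGM, -0.35 in PGF, -0.02 in HF and -0.30 in HM, and neither gene reached 1.5-fold in any comparison. In bulk tissue, fewer cells of a type and less RNA per cell cannot be told apart, here and for every gene below.

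The transcription factors that specify and maintain the lineage differed little. Olig1 was at 252 RPKM in Control, 282 in PGM, 293 in PGF, 241 in HF and 253 in HM. Its neighbour on chromosome 16, Olig2, was at 59.1 RPKM in Control, 60.1 in PGM, 63.2 in PGF, 56.4 in HF and 52.5 in HM. Sox10, which is present from the precursor to the myelinating cell, was at 35.05 RPKM in Control, 37.6 in PGM, 38.9 in PGF, 32.4 in HF and 31.3 in HM. Each of the 3 genes lay within 0.22 of Control in every group.

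Myrf, which the table lists under its older name Gm98 and which switches on myelin genes when precursors differentiate (chromosome 19, 10208272 to 10240748), was at 21.7 RPKM in Control, 21.9 in PGM, 23.7 in PGF, 18.7 in HF and 19.0 in HM. It was therefore no higher than Control in HM, where mature genes were. Nkx6-2, a homeobox factor of maturing oligodendrocytes, had the largest difference of the 5 in PGM and PGF, with 19.0 RPKM in Control, 22.3 in PGM, 26.6 in PGF, 17.55 in HF and 20.2 in HM. The median of the 5 factors was 0.10 in PGM, 0.15 in PGF, -0.11 in HF and -0.16 in HM, and none reached 1.5-fold.

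The median of the premyelinating genes lay between those of the lineage factors and the mature genes in PGM, PGF, HF and HM, but the 4 genes differed among themselves. Gpr17, a receptor that is on in committed precursors and is shut off before myelination, was at 259 RPKM in Control, 224 in PGM, 251 in PGF, 246 in HF and 223 in HM. Control was its highest group, as for the precursor genes. Enpp6, a choline phosphodiesterase of newly formed oligodendrocytes, was at 35.7 RPKM in Control, 40.2 in PGM, 42.8 in PGF, 37.2 in HF and 35.6 in HM. Bcas1, which marks cells that begin to myelinate, was at 94.95 RPKM in Control, 101 in PGM, 111 in PGF, 86.9 in HF and 89.7 in HM. Both were highest in PGF and lay near Control in HM.

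Tspan2, a tetraspanin that appears as oligodendrocytes differentiate and stays in myelin, was at 144 RPKM in Control, 173 in PGM, 206 in PGF, 139.8 in HF and 169 in HM. Of the 4 premyelinating genes it was nearest to the mature genes in its differences, at 0.26 in PGM, 0.52 in PGF and 0.23 in HM. The median of the 4 was 0.13 in PGM, 0.24 in PGF, -0.06 in HF and -0.04 in HM, and none reached 1.5-fold.

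**Figure D1:**
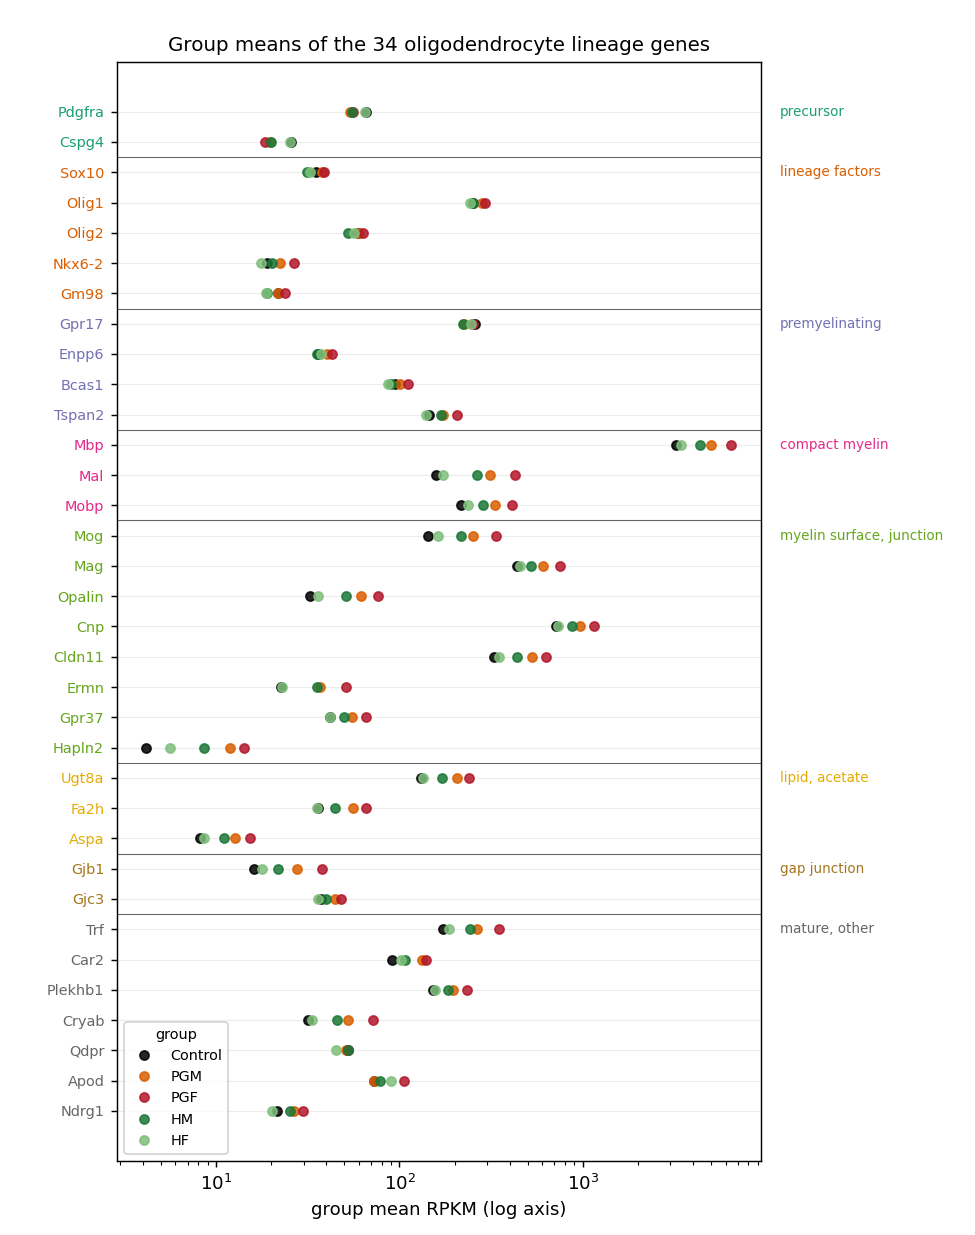
Group mean RPKM on a log axis for each of the 34 genes, in rows sorted by role, with 1 point per group and no error since only means were used. Except for Qdpr and Apod, the rows of mature genes spread from Control and HF on the left to PGF on the right. Pdgfra and Cspg4 have Control and HF on the right.

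The RNA of 3 genes for proteins of compact myelin was higher in all 4 groups than in Control, by little in HF. Mbp encodes myelin basic protein, which holds the inner membrane faces together (chromosome 18, 82475146 to 82585637). It was the most abundant member, at 3228 RPKM in Control, 4987 in PGM, 6448 in PGF, 3440 in HF and 4352 in HM. Its level in PGF was 2.0-fold that in Control. Mal, a proteolipid that sorts membrane to the sheath (chromosome 2, 127633226 to 127656695), was at 159 RPKM in Control, 311 in PGM, 425 in PGF, 173 in HF and 265 in HM, with differences of 0.97, 1.42, 0.12 and 0.74. Mobp, a basic protein of the same compartment (chromosome 9, 120149707 to 120181484), was at 216 RPKM in Control, 333 in PGM, 409 in PGF, 237 in HF and 286 in HM. The 3 genes kept one order of groups, and Mal differed most in PGM, PGF and HM.

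The 8 surface, junction and cytoskeletal genes of the sheath were also all higher in PGM, PGF and HM, and include the member that differed most. Hapln2, a link protein of the matrix at the nodes of Ranvier (chromosome 3, 88021750 to 88027583), was at 4.16 RPKM in Control, 11.96 in PGM, 14.2 in PGF, 5.62 in HF and 8.62 in HM. Its differences of 1.42, 1.65, 0.39 and 0.97 were the largest of any member in each of the 4 groups, at the lowest level of any member in Control. Mog, a glycoprotein on the outer face of myelin (chromosome 17, 37010743 to 37023398), was at 143 RPKM in Control, 252 in PGM, 337 in PGF, 162 in HF and 217 in HM. Opalin, a membrane protein specific to oligodendrocytes (chromosome 19, 41061710 to 41077113), was at 32.4 RPKM in Control, 61.4 in PGM, 76.5 in PGF, 35.8 in HF and 51.2 in HM. From Control to PGF the fold was 2.34 for Mog and 2.34 for Opalin.

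Ermn, which encodes a cytoskeletal protein of the late oligodendrocyte (chromosome 2, 58045113 to 58052864), was at 22.5 RPKM in Control, 36.7 in PGM, 50.9 in PGF, 22.9 in HF and 35.7 in HM. HM lay beside PGM for this gene and HF beside Control. Cldn11, the claudin of the tight junctions between myelin layers, was at 329 RPKM in Control, 525 in PGM, 630.1 in PGF, 349.8 in HF and 439 in HM. Mag, an adhesion protein on the face towards the axon, was at 437 RPKM in Control, 605 in PGM, 749 in PGF, 453 in HF and 524 in HM. Cnp, a phosphodiesterase that keeps cytoplasmic channels in the sheath open, was at 717 RPKM in Control, 960.2 in PGM, 1155 in PGF, 736 in HF and 870.1 in HM. Gpr37, a receptor known to restrain differentiation that is expressed in mature oligodendrocytes, was at 41.8 RPKM in both Control and HF, 54.8 in PGM, 65.8 in PGF and 49.95 in HM. Mag, Cnp and Gpr37 had the 3 smallest differences of the 8 genes, at 0.39 to 0.47 in PGM and 0.65 to 0.78 in PGF.

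The genes of myelin lipids differed from Control by like amounts. Ugt8a makes galactosylceramide, the main glycolipid of myelin, and was at 131 RPKM in Control, 207 in PGM, 238 in PGF, 135 in HF and 171 in HM. Fa2h, which hydroxylates the fatty acids of these lipids, was at 35.9 RPKM in Control, 55.5 in PGM, 65.6 in PGF, 35.6 in HF and 44.7 in HM. Aspa, which frees acetate for lipid synthesis from N-acetylaspartate, was at 8.20 RPKM in Control, 12.7 in PGM, 15.3 in PGF, 8.60 in HF and 10.99 in HM. All 3 genes differed by 0.86 in PGF and by 0.61 to 0.65 in PGM.

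The 2 genes of the gap junction protein family were less alike. Gjb1 (connexin 32) was at 16.1 RPKM in Control, 27.6 in PGM, 37.6 in PGF, 17.8 in HF and 21.6 in HM. Gjc3 was at 37.3 RPKM in Control, 44.6 in PGM, 48.2 in PGF, 35.96 in HF and 39.5 in HM. In PGF the difference was 1.20 for Gjb1 and 0.37 for Gjc3.

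Members with other functions in the mature cell ranged from as large as the myelin proteins to no difference. Trf, the iron carrier transferrin, was at 174 RPKM in Control, 265 in PGM, 349.8 in PGF, 185 in HF and 241 in HM. Cryab, a small heat shock protein, was at 31.8 RPKM in Control, 52.3 in PGM, 71.3 in PGF, 33.2 in HF and 45.4 in HM. Car2, the carbonic anhydrase, was at 91.0 RPKM in Control, 133 in PGM, 140.3 in PGF, 102 in HF and 107 in HM. In PGF, Trf was 2.01-fold and Cryab 2.22-fold its Control level, and Car2 differed about as much in PGM (0.55) as in PGF (0.62).

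Plekhb1, a pleckstrin domain protein, was at 152 RPKM in Control and 233 in PGF, and Ndrg1, a stress-responsive gene, at 21.4 and 29.9. Apod, a lipocalin that fibroblasts of the vessels and meninges also make, was at 72.7 RPKM in Control, 72.6 in PGM, 106 in PGF, 90.4 in HF and 78.5 in HM. It was the only mature gene higher in HF than in HM. Qdpr, an enzyme that recycles tetrahydrobiopterin and is expressed in many cells, was at 52.3 RPKM in Control, 50.9 in PGM, 52.3 in PGF, 44.9 in HF and 52.7 in HM. Apod in PGM and Qdpr in PGM and PGF lay within 0.05 of Control.

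Counted together, 14 of the 34 members were at least 1.5-fold higher in PGM than in Control, where 2.34% of the 17481 genes were. In PGF 19 members were, against 2.16% of all genes, and in HM 5 members, against 0.675%. In HF none was, against 0.658% of all genes. All the members counted were mature genes, and the 5 in HM were Mal, Mog, Opalin, Ermn and Hapln2. No member was 1.5-fold lower than Control in PGM, PGF, HF or HM, where 2.28%, 1.88%, 0.172% and 0.864% of all genes were. In PGM the counts of Aspa, Trf, Mbp and Mobp lie near the threshold, and 1 or more of 3 alternatives (a pseudocount of 1 RPKM, upper quartile scaling or quantile normalization) put each of them under it.

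The 23 mature genes had a median difference of 0.62 in PGM, 0.86 in PGF, 0.06 in HF and 0.40 in HM, where the medians over all genes were 0.005, -0.03, 0.02 and -0.03. Of the 23, the number above Control was 21 in PGM, 22 in PGF, 18 in HF and 23 in HM. The share of all genes above Control was not counted. The 4 comparisons share the Control mean. The group levels of 17 of the 23 genes stood in the order Control, HF, HM, PGM, PGF from low to high, an order found in 2.92% of all genes. PGF was the highest group for 22 of the 23, all but Qdpr, and for 13.4% of all genes. This order and this top group are the most common among these same genes and were not in the plan. Shares above those of all genes are therefore built in by that choice and are no separate check.

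**Figure D2:**
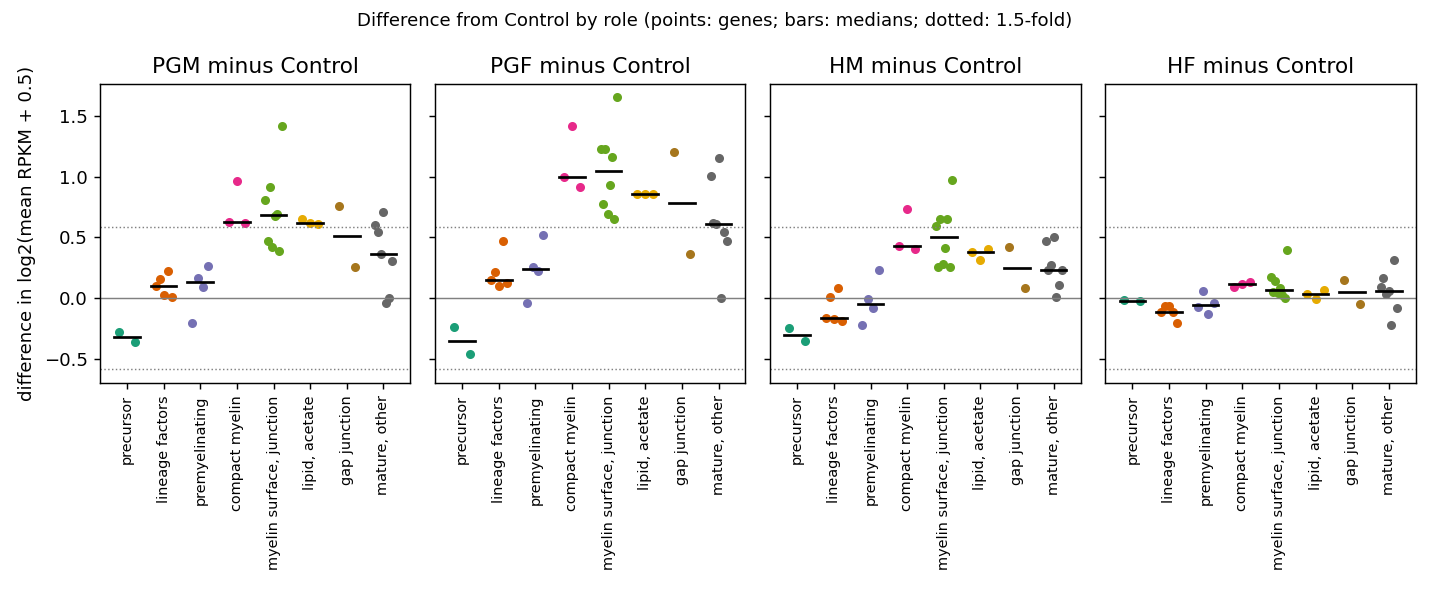
Difference of each member from Control in log2(mean RPKM + 0.5), in 1 panel per group and 1 column per role, with a bar at the median of the role. From left to right the bars go from below 0 for the precursor pair (-0.32 in PGM) to between 0.37 and 0.68 for the mature roles in PGM, and all bars in HF lie near 0.

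Roles can also be set against each other within a group, where the scaling of that group cancels. The median difference of the mature genes exceeded that of the precursor pair by 0.94 in PGM, 1.21 in PGF, 0.09 in HF and 0.70 in HM. In PGM, PGF and HM all 23 mature genes lay above both precursor genes in their difference from Control, and in HF 20 of 23 did. The higher precursor gene was Pdgfra, at -0.28 in PGM, -0.23 in PGF, -0.02 in HF and -0.25 in HM. The medians over all genes lay above these values, so most genes of the table did too. Against the premyelinating median, the mature median was higher by 0.49, 0.62, 0.12 and 0.45. In PGM, PGF and HM 20 of 23 mature genes lay above all 4 premyelinating genes, and in HF 13 did. The share of all genes above the premyelinating genes was not counted.

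Ratios of single genes give the same comparison on the scale of RPKM. The level of Mbp was 49.2 times that of Pdgfra in Control, 92.4 in PGM, 116 in PGF, 53.1 in HF and 79.1 in HM. The ratio of Mag to Cspg4 was 17.1 in Control, 30.6 in PGM, 40.6 in PGF, 18.0 in HF and 26.3 in HM. Mog stood at 4.09 times the level of Sox10 in Control, 6.69 in PGM, 8.68 in PGF, 5.02 in HF and 6.92 in HM. Within compact myelin, Mal was at 4.92% of the level of Mbp in Control, 6.24% in PGM, 6.60% in PGF, 5.02% in HF and 6.09% in HM. All of these ratios were lowest in Control, next in HF and highest in PGF.

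The members were a small part of the table by level. Their summed RPKM was 0.341% of that of all kept genes in Control, 0.488% in PGM, 0.606% in PGF, 0.355% in HF and 0.427% in HM. Without Mbp the shares were 0.187%, 0.252%, 0.303%, 0.192% and 0.223% in the same order.

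The comparisons of PGM with PGF and of HM with HF use neither Control nor each other's samples. PGM was lower than PGF in all 23 mature genes, with a median difference of -0.27, where the median over all genes was 0.03. No member reached 1.5-fold, where 0.555% of all genes were lower and 0.435% higher. Apod differed most at -0.55, followed by Ermn at -0.47, Mal at -0.45, Cryab at -0.44 and Gjb1 at -0.44. Ddx3y was alike in both groups (30.4 and 32.0 RPKM), while the pituitary sum was 88.0 against 2026 RPKM. All 8 meningeal markers were lower in PGM, with a median of -0.40, and the 10 thalamic markers had a median of 0.12. The part of these differences in the values of the members was not tested.

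HM was higher than HF in 22 of 23 mature genes with a median of 0.32, where the median over all genes was -0.05. Ermn (0.63) and Mal (0.62) reached 1.5-fold, as 0.366% of all genes did in this direction, and Hapln2 (0.58) and Opalin (0.51) came next. The precursor pair had a median of -0.28, with Cspg4 at -0.33 and Pdgfra at -0.23, whereas between PGM and PGF its median was 0.03. No member was 1.5-fold lower in HM than in HF, where 1.31% of all genes were. Ddx3y was again alike (16.8 and 15.9 RPKM), but other markers differed along with the members. Of 8 meningeal markers 7 were 1.5-fold lower in HM, with a median of -0.83, and all 7 endothelial genes were lower with a median of -0.29. Of 10 thalamic markers 9 were higher in HM, with a median of 0.45, and the pituitary sum was 112 RPKM in HM and 58.6 in HF. The part of these markers in the values of the members was not tested.

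**Figure D3:**
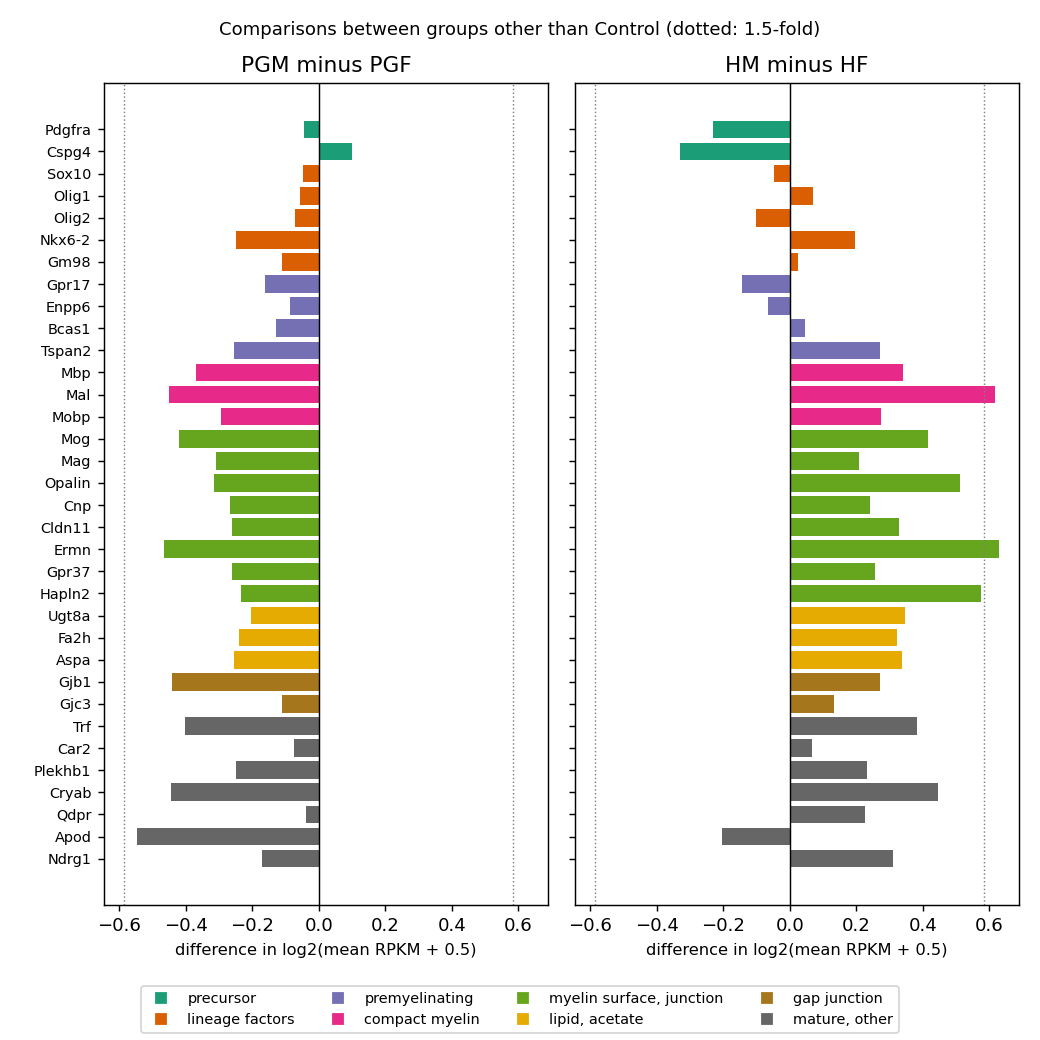
Difference of each member between PGM and PGF (left) and between HM and HF (right) in log2(mean RPKM + 0.5), coloured by role. On the left every bar of a mature gene points below 0, down to -0.55 for Apod, and on the right all but Apod (-0.20) point above 0, up to 0.63 for Ermn.

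The table lists 84 transcripts of the members, and 20 members have more than 1. In each comparison 18 or 19 of the 20 had all their transcripts on the same side of the reference, and the median spread between transcripts of 1 gene was 0.02 to 0.04. The genes with mixed direction were Apod, Gm98, Enpp6 and Pdgfra, in comparisons where the gene differed by at most 0.12 in size. The values of transcripts of 1 gene share reads in part, and the sources used here do not say how reads were split among them.

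Mobp had the widest spread in PGF. Its transcript uc009scm.1 was at 548 RPKM in Control, 943 in PGM, 1241 in PGF, 607 in HF and 849.6 in HM, with a difference of 1.18 in PGF, while the other 3 differed by 0.91 to 1.02. For Mbp, the transcript uc008ftr.1 stood far below the other 7, at 122 RPKM in Control, 169 in PGM, 214 in PGF, 131 in HF and 151 in HM. Its differences of 0.47 in PGM and 0.81 in PGF were smaller than those of the other 7 transcripts, which were 0.63 in PGM and 1.0 to 1.01 in PGF. The direction was the same for all 8.

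Since most mature genes were higher in the same groups, the bases before their start sites were searched for 4 kinds of motif on both strands. These were ACAAAG or ACAATG for SOX factors, CAGCTG or CAGATG for the basic helix-loop-helix factors to which Olig2 belongs, CTGGCAC or CTGGTAC for MYRF, and AGGTCA, the half-site of nuclear receptors such as those of thyroid hormone. RefSeq (GRCm38.p6) gave 30 promoters for 23 of the members, and no promoter was matched for Bcas1, Car2, Cryab, Fa2h, Gm98, Gpr17, Mbp, Ndrg1, Olig1, Sox10 and Trf. Shown here are the 250 bases before the start of 4 mature genes with large differences and of a precursor gene that went the other way, each 5′ to 3′ on the strand of its gene, with motif matches in capitals.
Mal, chr2:127656696-127656945, minus strand: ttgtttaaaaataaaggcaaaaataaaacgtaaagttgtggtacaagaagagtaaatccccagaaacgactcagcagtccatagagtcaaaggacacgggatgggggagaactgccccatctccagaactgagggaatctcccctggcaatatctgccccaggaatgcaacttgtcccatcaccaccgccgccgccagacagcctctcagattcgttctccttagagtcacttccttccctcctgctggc
Mog, chr17:37023399-37023648, minus strand: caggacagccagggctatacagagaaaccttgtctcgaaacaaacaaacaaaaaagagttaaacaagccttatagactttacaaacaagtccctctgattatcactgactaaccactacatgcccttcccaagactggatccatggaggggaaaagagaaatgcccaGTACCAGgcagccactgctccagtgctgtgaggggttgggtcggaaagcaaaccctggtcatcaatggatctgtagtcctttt
Opalin, chr19:41077114-41077363, minus strand: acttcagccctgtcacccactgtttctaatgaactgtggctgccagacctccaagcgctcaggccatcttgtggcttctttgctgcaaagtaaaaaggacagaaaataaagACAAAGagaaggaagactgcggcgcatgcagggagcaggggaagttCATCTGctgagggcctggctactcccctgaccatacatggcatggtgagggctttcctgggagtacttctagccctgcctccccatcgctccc
Ermn, chr2:58052865-58053114, minus strand: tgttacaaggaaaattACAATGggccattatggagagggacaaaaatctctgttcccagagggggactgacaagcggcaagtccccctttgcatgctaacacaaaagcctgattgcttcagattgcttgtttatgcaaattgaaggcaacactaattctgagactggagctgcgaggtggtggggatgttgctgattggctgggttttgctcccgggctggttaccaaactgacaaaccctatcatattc
Pdgfra, chr5:75152001-75152250, plus strand: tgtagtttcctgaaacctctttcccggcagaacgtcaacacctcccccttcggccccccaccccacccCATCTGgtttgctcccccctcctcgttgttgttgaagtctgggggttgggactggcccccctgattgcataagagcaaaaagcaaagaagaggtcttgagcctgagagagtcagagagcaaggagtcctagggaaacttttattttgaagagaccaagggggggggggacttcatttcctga
Mog holds a MYRF match on the reverse strand that begins 83 bases before the start. Opalin holds a SOX match 139 bases before it and an E-box 93 bases before it. Ermn holds a SOX match 234 bases before the start, Pdgfra an E-box 182 bases before it, and Mal none of these letters.

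Over the 23 promoters of 17 mature genes, some of which overlap, a SOX motif was found in 47.8%, against 25.2% of all 32851 promoters of the same length. The MYRF letters were in 21.7% of them, in the genes Cnp, Hapln2, Mag and Mog, against 5.93% of all. An E-box was in 34.8% against 25.5%, and AGGTCA in 4.35%, which was 1 promoter of Gjb1, against 14.0%. Overlapping promoters of Mag hold the same SOX and MYRF sites, so these sites were counted more than once. Some windows lie in part or in full in annotated exons, with all 250 bases for Gpr37 and 72 for Hapln2. Matches in these windows were counted too. By gene, a SOX motif was in 9 of the 17 mature genes, against 7608 of all 27025 genes. An E-box was in 8 of the 17, against 7630 of all, which is close to the counts for SOX. The MYRF letters were in 4 of the 17, against 1836 of all, and AGGTCA in 1 of the 17, against 4260 of all. A match is a description of letters in this window and shows no binding.

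Other genes of each stage of the lineage were counted in the same way. Of 15 other precursor genes, 12 were lower than Control in PGM, 12 in PGF, 9 in HF and 13 in HM, none by 1.5-fold, with medians of -0.22, -0.26, -0.06 and -0.25. Medians of the lists below follow this order of PGM, PGF, HF and HM. Xylt1, a xylosyltransferase of proteoglycan synthesis, was at 22.7 RPKM in Control and 15.8 in PGF, and the endothelin receptor gene Ednrb at 173 and 131. Ednrb is also expressed in astrocytes. The 15 other premyelinating genes had medians of 0.05, 0.17, 0.02 and -0.04. Their largest differences were in PGM, for Mpzl1 (22.4 RPKM against 37.2), the Wnt effector Tcf7l2 (36.6 against 22.2) and Zfp488, a cofactor of Olig2 (90.8 against 137). Tcf7l2 is also a gene of thalamic neurons.

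Of 28 measured other genes of myelin, 6 were 1.5-fold higher in PGM, 13 in PGF, none in HF and 1 in HM, with medians of 0.38, 0.54, 0.06 and 0.20. Klk6, a protease of mature oligodendrocytes, was at 1.65 RPKM in Control, 3.80 in PGM, 6.02 in PGF, 1.88 in HF and 3.03 in HM. Ppp1r14a, a phosphatase inhibitor, was at 26.3 RPKM in Control and 66.3 in PGF. Ptgds, a prostaglandin synthase made by oligodendrocytes and by the meninges, went against the list, at 1468 RPKM in Control, 538 in PGM, 803 in PGF, 1544 in HF and 696 in HM. The meningeal markers Ogn, Igf2 and 6 others had medians of -0.92 in PGM, -0.55 in PGF, 0.20 in HF and -0.67 in HM beside it, and their part in the value of Ptgds was not tested.

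Signals that act on the lineage were less uniform. Erbb3, a neuregulin receptor of oligodendrocytes, was at 10.9 RPKM in Control, 16.5 in PGM, 20.2 in PGF, 10.7 in HF and 14.3 in HM. The 11 measured growth factor genes together had medians of -0.08, -0.13, -0.01 and -0.03, and Fgfr1 was at 55.7 RPKM in Control and 41.4 in PGF. The 10 measured inhibitors of differentiation, which include the member Gpr37, had medians of 0.15, -0.04, -0.03 and -0.09, and Id4 was at 75.2 RPKM in Control and 108 in PGM. The 17 genes of cholesterol synthesis, which supplies myelin and other membranes, had medians of 0.21, 0.25, 0.03 and 0.02, none by 1.5-fold. Mature myelin genes in HM were thus 0.40 higher in the median while the cholesterol genes lay at 0.02.

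Of 11 genes of the axon and the node, 1 was 1.5-fold higher in PGM and 2 in PGF, where 2.34% and 2.16% of all genes were. The medians were 0.18, 0.26, -0.03 and 0.11. With the most abundant transcript of each gene in place of the median, the value in HM was -0.04. The list was mixed in direction: 3 of the 11 were lower than Control in PGM, 4 in PGF, 6 in HF and 5 in HM, none by 1.5-fold. The 2 genes named next had the largest differences of the list. Kcna1, the potassium channel gene of the axon beside the node, was at 36.1 RPKM in Control, 59.5 in PGM, 66.6 in PGF, 37.8 in HF and 48.4 in HM. Nefh, the heavy neurofilament chain of large axons, was at 91.1 RPKM in Control, 129 in PGM, 141 in PGF, 100.02 in HF and 119 in HM.

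Markers of neighbouring brain regions also differed between the groups. Of 10 thalamic markers, 9 were 1.5-fold higher in PGM, 8 in PGF, 1 in HF and 4 in HM, with medians of 1.10, 0.87, -0.04 and 0.40. Their summed level was 231 RPKM in Control, 522 in PGM, 498 in PGF, 231 in HF and 319 in HM. The mature genes summed to 6155, 9282, 11749, 6521 and 8120 RPKM in these groups. Mbp alone made up 3228, 4987, 6448, 3440 and 4352 RPKM of these sums, so their order is largely that of 1 gene. The thalamic sum was highest in PGM, with PGF close to it, and the mature sum was highest in PGF. The medians of the mature genes, in the order of the thalamic medians above, were 0.62, 0.86, 0.06 and 0.40. The 10 markers of striatum and cortex summed to 88.1, 197, 153, 115 and 109.9 RPKM, and the 14 genes of hypothalamic neurons to 2055, 1521, 1383, 1846 and 1873 RPKM. Of these 14 genes, 9 were 1.5-fold lower than Control in PGM, 11 in PGF, none in HF and 1 in HM. Their medians were -0.73, -0.85, -0.14 and -0.26. In PGM 2 of them were above Control, in PGF 2, in HF 3 and in HM 4, none by 1.5-fold. The part of the tissue share in the level of the members was not tested.

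The medians of the markers of broad cell classes lay closer to Control, though single genes differed more. The medians in PGM, PGF, HF and HM were -0.05, -0.07, -0.01 and -0.04 for 10 astrocyte genes, 0.04, -0.07, 0.10 and -0.01 for 10 microglial genes, and 0.15, 0.11, 0.02 and 0.10 for 7 neuronal genes. The 7 endothelial genes had -0.13, -0.04, 0.04 and -0.15, and all 7 were lower in PGM and in HM. Gfap, the intermediate filament gene of astrocytes, was at 244 RPKM in Control, 146 in PGM, 193 in PGF, 244 in HF and 181 in HM, and was the 1 astrocyte marker past 1.5-fold in PGM. Sox9, a transcription factor of astrocytes, was at 3.69 RPKM in Control, 5.30 in PGM, 4.29 in PGF, 2.54 in HF and 4.13 in HM. The peripheral nerve markers were split. Pmp22, a myelin protein gene that other cells also express, was at 21.1 RPKM in Control, 24.8 in PGM, 25.3 in PGF, 22.5 in HF and 22.6 in HM, and Drp2, a dystrophin relative, was at 21.97 to 23.2 RPKM. Prx, a scaffold protein of Schwann cells, and Egr2, a transcription factor of their myelination, were at or under 0.96 RPKM in all 5 groups.

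**Figure D4:**
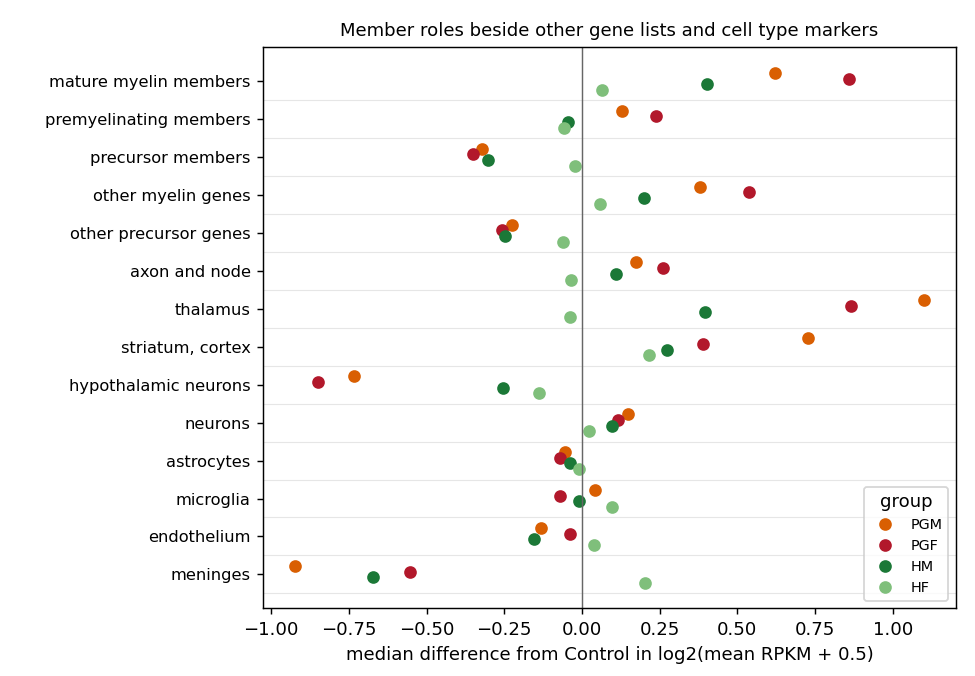
Median difference from Control in log2(mean RPKM + 0.5) for the mature, premyelinating and precursor members, other genes of these stages, and markers of brain regions and cell classes, with 1 point per group. The mature members run from 0.06 in HF to 0.86 in PGF, the thalamic markers from -0.04 in HF to 1.10 in PGM, and the astrocyte and microglial markers lie within 0.10 of 0.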

How the data were processed

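RNA was sequenced from hypothalamus in 15 samples, 3 in each of 5 groups taken from their titles. The file held, for 49404 transcripts, the RPKM that the authors had averaged over each group, per the file headers, together with 1 repeated header line that was left out. Reads were checked with FastQC and aligned with Novoalign 2.08 to mm10, per the submitters' processing notes. The sources used here do not give the counting program, its handling of shared reads or the depth. RPKM is relative to all mapped reads, and a mean hides a sample that stands apart.

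Here the median over a gene's transcripts was used. Genes that averaged 1 RPKM or more were kept, 17481 or 70.4% of 24831 names, and all 34 members passed. Differences are of log2(mean RPKM + 0.5), which understates those of low genes. With means only, the plan without a test was followed, and the 6 comparisons are descriptions. All members were named, with up to 3 genes of each of 7 other lineage lists and markers from 12 lists, by largest difference. Prx, Egr2, Ddx3y and the meningeal genes were named as markers, and 1 other marker is not reported here. Of 217 other listed names 6 were not found. The members and lists were chosen with earlier results of these data known. Positions are from GENCODE M21 (GRCm38, which is mm10) and promoters from RefSeq. The difference and counting steps were tested on simulated data. Python 3.11.15, numpy 2.4.6, pandas 2.3.3 and matplotlib 3.10.9 were used.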

Additional observations from a re-analysis of the deposited data

How the results depend on the processing

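The counts, the difference of each member and the medians of roles and lists were recomputed. Counts had 10 other settings, and differences and medians the 8 of these that do not set the threshold. In 1 more setting, chosen after seeing the data, HF replaced Control as the reference. Summed levels, ratios, shares, group orders and motif counts were not recomputed. With no spread to compare with, a median was counted as moved when it shifted by 0.1 or more. Under the 8 settings none of the medians of the precursor, lineage factor, premyelinating and mature genes did, and the mature median stayed between 0.56 and 0.64 in PGM, 0.85 and 0.90 in PGF, 0.38 and 0.42 in HM, 0.04 and 0.07 in HF, -0.30 and -0.27 for PGM against PGF, and 0.32 and 0.36 for HM against HF. No member counted at 1.5-fold changed direction. With HF as the reference, the mature median exceeded that of the precursor pair by 0.835 in PGM and 0.604 in HM. In that setting the lineage factor median was 0.22 in PGM, 0.28 in PGF and 0.024 in HM, and 2 members were counted as higher in HM. The 5 sex-linked genes in HM then had a median of -0.060 but ran from -0.42 to 0.07, so their median does not describe each gene.

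At a 2-fold threshold 1 member was higher in PGM, 8 in PGF and 0 in HM and in HM against HF. At a threshold of 0.32 on the log2 scale in place of 0.585, 13 were higher in HM, 1 in HF and 12 in HM against HF, 8 were lower in PGM against PGF, and 1 was lower in each of PGM, PGF, HM and HM against HF. Under quantile normalization 1 member was lower in PGM against PGF. The count over all genes in either direction at 2-fold was 145 in PGM, 147 in PGF, 38 in HM, 54 in HF, 50 in PGM against PGF and 46 in HM against HF, and at the threshold of 0.32 it was 2990, 2813, 1541, 642, 913 and 1272. With no filter it was 496 in HM, 363 in HF, 388 in PGM against PGF and 520 in HM against HF, and with a mean of at least 3 RPKM 172, 75, 93 and 182. A pseudocount of 0.1 gave 271 in PGM against PGF. In the main setting these counts were 807, 706, 269, 145, 173 and 293. Of the 114 medians of other lists, 27 shifted by 0.1 or more under at least 1 of the 8 settings, among them the axon genes in PGF (0.15) and HM (-0.04) and the astrocyte genes in PGM (-0.16) with the most abundant transcript, and the neuronal genes in PGM (0.05) with quantile normalization.

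No paired analysis was possible because the columns are group means without replicate numbers. Leaving out a replicate was not run. The depth behind each mean is unknown, so no interval can be given.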
